A study of Homo sapiens with 8 samples.

Results

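The genes described here are imprinted genes, which are expressed mainly or only from the copy inherited from 1 parent. They were named in advance as DLK1, MEG3, IGF2, H19, PEG3, MEST, NNAT, SNRPN, GNAS and CDKN1C. A gene was included where the deposited count table of the combined assembly listed transcripts under its symbol and the assembly itself gave them that gene name. This held for 9 of the 10 genes, with 76 transcripts, among 20195 genes named by the assembly. PEG3 had no such transcript and was not analysed here. No values chose the genes, but they were proposed with earlier results of these data in view.

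Polyadenylated RNA was read as long reads (PacBio Sequel II) from H1 cells, a human embryonic stem cell line in wide use. The 8 libraries formed 4 groups of 2 repeats. The hPSC group was undifferentiated H1 kept on Matrigel in mTeSR1. The other groups were H1 cells collected after 5 days in a germ layer medium. Ectoderm medium held 15% KOSR and the inhibitors A83-01, PNU-74654 and Dorsomorphin at 2 µM each. Endoderm medium held 0.5% FBS, WNT3A and 100 ng/ml Activin A. Mesoderm medium held 0.5% FBS, 100 ng/ml VEGF, 100 ng/ml BMP4 and 10 ng/ml bFGF, with 100 ng/ml Activin A during the first 24 hours. A83-01 blocks receptors of the Activin and TGF-beta branch, Dorsomorphin blocks BMP receptors, and PNU-74654 inhibits WNT signalling. All groups came from 1 cell line, and the labels do not say whether repeats were separate cultures, so p-values measure only the spread between these libraries, which may be technical.

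Imprinting is set by DNA methylation that differs between egg and sperm and is kept on 1 parental copy after fertilization at imprinting control regions. Many imprinted genes act in growth of the fetus and placenta, in metabolism and in the brain. Several imprinted loci hold promoters of different imprinting status side by side, so that a start site carries information that a gene total does not. The reads were not assigned to parental copies, and allele-specific expression was not measured.

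Total counts were between 503840 and 1180888 reads per library, with ectoderm the deepest. The mean length of the transcripts behind the reads was 4406 and 4650 nt in ectoderm, 3765 and 3840 nt in mesoderm, and from 2975 to 3298 nt in hPSC and endoderm. The hPSC repeats resembled each other least, with a Pearson r of log2 CPM of 0.858 across genes, against 0.932 to 0.963 in the layers. Genes are not independent replicates, and r is a description. Levels are given as CPM, counts divided by the library total on the usual scale of that unit. Fold changes come from edgeR with TMM scaling, so they can differ from ratios of CPM. Scaling by library totals instead moved the median log2 fold change over all genes by 0.41 for ectoderm, by -0.33 for endoderm and by 0.23 for mesoderm against hPSC.

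The labelled layers were checked against marker lists. All 7 tested endoderm markers were higher in endoderm than in hPSC, beside 13.4% of all genes. In ectoderm, 3 of 5 tested neural ectoderm markers (PAX6, SIX3 and LHX5) were higher, beside 23.8%. Endoderm also had 4 of 5 tested mesoderm markers and 2 of 5 neural ectoderm markers (PAX6 and OTX2) higher. Of 8 pluripotency markers, 4 were lower in endoderm, 6 in ectoderm and 8 in mesoderm, beside 13.7%, 24.8% and 18.2% of all genes lower. POU5F1, SOX2, DNMT3B and ZFP42 were lower in endoderm, while NANOG (134 against 191 CPM in hPSC), TDGF1, LIN28A and SALL4 were not called. In the group labelled mesoderm, HAND1, TBX3 and BMP4 were higher, but KDR was lower, and TBXT, MIXL1 and FOXF1 had at most 1 read per library. All 9 tested markers of amnion and trophoblast, which are extraembryonic tissues, were higher in this group than in hPSC, beside 17% of all genes. Their 10 listed members summed to 6791 and 7488 CPM there, with all 10 detected in both libraries, against 14.5 to 80.3 CPM in the other 6 libraries. GABRP alone had 2269 and 2355 counts. Markers without reads in hPSC, such as CER1 and CGA, passed the filter on low counts only through layers where they were high. The counts of markers called are therefore partly set by that filter. These values stand beside every mesoderm result below, and their part in those results was not tested. In bulk RNA, fewer cells with a transcript and less of it per cell cannot be told apart.

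Of the 9 genes, all were among the 10847 genes tested. H19, IGF2 and CDKN1C passed the filter on low counts only through the mesoderm libraries, and DLK1 only through ectoderm. Their p-values and calls are therefore conditional on high levels there. Against hPSC, ectoderm had 3 higher (DLK1, MEST, NNAT) and 2 lower (SNRPN, GNAS) at an adjusted p under 0.05, beside 23.8% of all genes higher and 24.8% lower. Endoderm had 1 higher (CDKN1C) and 2 lower (MEST, GNAS), beside 13.4% and 13.7% of all genes. Mesoderm had 4 higher (H19, IGF2, MEST, CDKN1C) and 4 lower (MEG3, NNAT, SNRPN, GNAS), beside 17% and 18.2%. The 3 comparisons share the hPSC libraries. The median log2 fold change of the 9 genes was 0.40 in ectoderm, 0.00 in endoderm and 2.35 in mesoderm, beside -0.01, -0.13 and 0.01 over all genes. The mesoderm median was 0.00 when genes without reads in hPSC were set to their lower bound. With library totals as the scale, 3546 genes were higher and 1787 lower in ectoderm (2587 and 2688 with TMM), 1011 and 2170 in endoderm (1457 and 1486), and 2168 and 1505 in mesoderm (1839 and 1976).

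**Figure D1:**
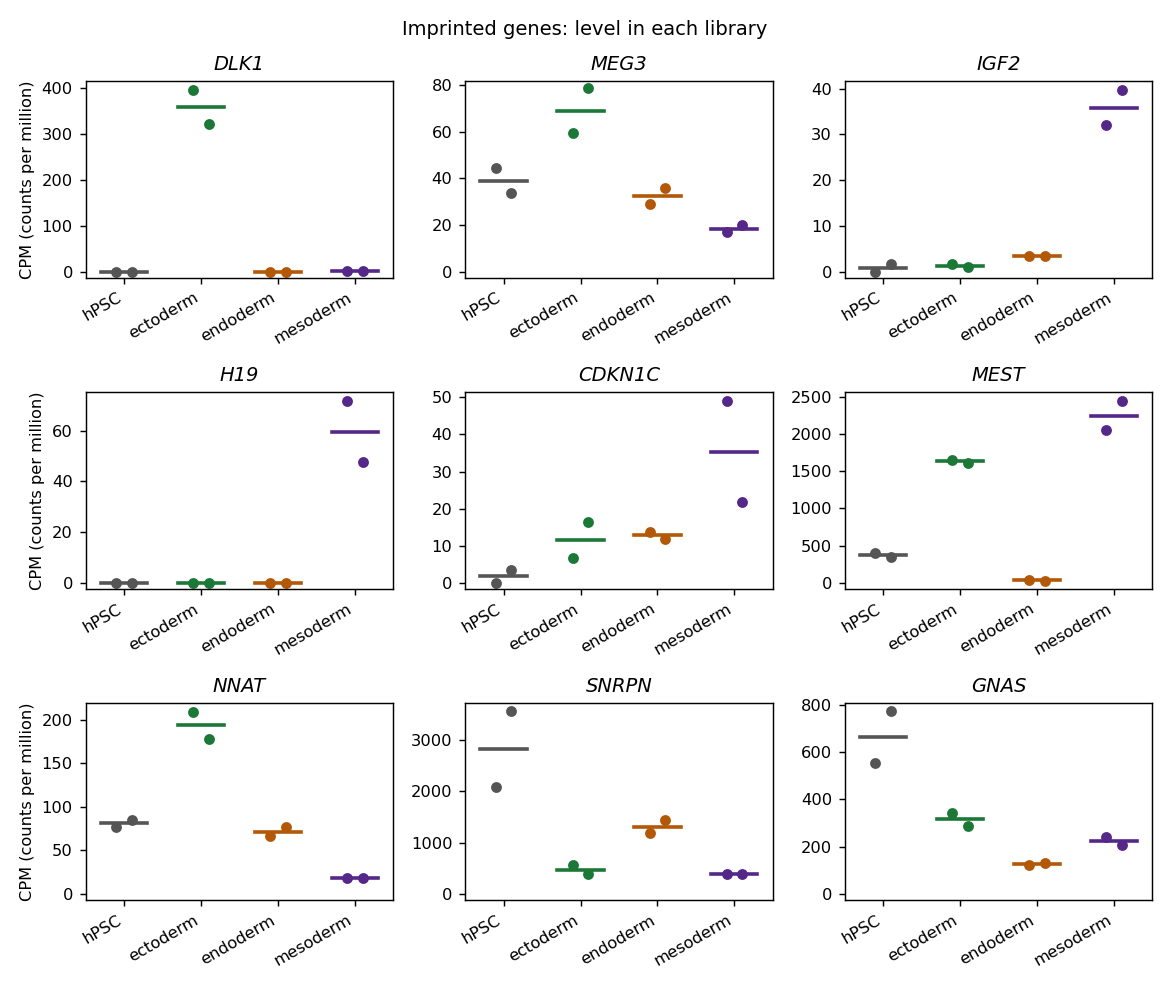
Level of the 9 imprinted genes in each of the 8 libraries, in CPM, with 1 point per library and a line at the mean of the 2 repeats. DLK1 was high in ectoderm alone at 396 and 323 CPM, H19 had reads in mesoderm alone, and MEST fell to 35.9 and 32.4 CPM in endoderm.

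Between layers, ectoderm had 2 of the 9 genes higher than endoderm (DLK1, MEST) and 1 lower (SNRPN), beside 33.1% of all genes higher and 29.9% lower. Ectoderm had 3 higher than mesoderm (DLK1, MEG3, NNAT) and 3 lower (IGF2, H19, CDKN1C), beside 18.1% and 17.3%. Endoderm had 3 higher than mesoderm (MEG3, NNAT, SNRPN) and 3 lower (IGF2, H19, MEST), beside 23.2% and 23.9%. The ectoderm and endoderm count depended on the scale and on other settings. With library totals 6 genes were called, where MEG3, NNAT and GNAS were also higher in ectoderm. NNAT (edgeR adjusted p = 0.0632 in the main fit) was gained in 7 of 17 alternatives and GNAS (0.164) in 6 of 17. The scale of library totals moved the split over all genes to 5162 higher and 2039 lower, from 3593 and 3248. It moved the split of ectoderm against mesoderm to 2383 and 1439, from 1968 and 1878, and that of endoderm against mesoderm to 1532 and 3916, from 2519 and 2588.

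The chromosome 14 cluster holds DLK1 and MEG3. DLK1 encodes a transmembrane ligand of the Notch family that is made from the paternal copy, and MEG3 is a maternally expressed long noncoding RNA. DLK1 (chr14:100726892-100738224, GRCh38, plus strand) had 468 and 312 counts in the ectoderm libraries. It had 0 counts in all hPSC and endoderm libraries and 1 count in each mesoderm library. The ectoderm libraries therefore stood apart from the other 6, at 359 ± 52.1 CPM (SD, n = 2). Against a floor of 3 counts per library, DLK1 was at least 64.7-fold higher in ectoderm than in hPSC (edgeR adjusted p = 3.5e-07) and at least 70.2-fold higher than in endoderm. Against mesoderm, with its 2 reads, the ratio of pooled CPM was 188, with a 95% exact conditional binomial interval from 51.8 to 1554 that covers counting error only.

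Nearly all DLK1 reads belonged to the reference form of 5 exons, with 459 and 298 of the ectoderm counts. The other 9 and 14 came from a form in which 219 nt (chr14:100734429-100734647) are removed as a further intron. Forms of DLK1 that lack this stretch are known to lack the site at which the protein is cut from the membrane. In likeness of pattern over the 8 libraries, by Pearson r of log2(CPM + 1), GABPA and KCNMB2-AS1 stood nearest to DLK1 at 0.993 each. These r values are descriptions, and for a gene with reads in 1 group they mostly restate that group.

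MEG3 (chr14:100826118-100861026, plus strand) was present in every library, at 23 and 19 counts (hPSC), 70 and 76 (ectoderm), 17 and 21 (endoderm) and 9 and 10 (mesoderm). In CPM, ectoderm was highest at 68.9 ± 13.6, hPSC had 39.0 ± 7.41, endoderm 32.4 ± 4.80 and mesoderm 18.4 ± 2.05 (SD, n = 2 each). The mesoderm libraries lay below all others. MEG3 was lower in mesoderm than in hPSC, with a log2 fold change of -1.30 ± 0.42 (SE, edgeR adjusted p = 0.0242). That call was lost without either mesoderm library (adjusted p 0.154 and 0.104), with DESeq2 (0.129), with library totals (0.0582) and in a fit of the 4 libraries alone (0.0553). MEG3 was also lower in mesoderm than in ectoderm (ectoderm minus mesoderm 1.70 ± 0.38, adjusted p = 0.00265) and than in endoderm (1.38 ± 0.42, adjusted p = 0.0143), the latter lost in 5 of 17 alternatives (up to 0.114), among them without either mesoderm library and without endoderm repeat 2. Ectoderm against hPSC gave 0.40 ± 0.33 and endoderm 0.08 ± 0.37, neither called. MEG3 transcripts are long, with a count-weighted length of 5364 nt, and with the trend on transcript length removed the ectoderm value was -0.27.

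MEG3 was split over 18 assembled transcripts, 10 of them reference forms. All but 8 of its 245 reads were assigned to transcripts that start at position 100826118. The 8 others, all in ectoderm, were assigned to a transcript that starts 6.85 kb downstream. The transcript with the most reads was no reference form, with 7601 nt in 6 exons. Its counts were 6 and 13 (ectoderm), 4 and 3 (hPSC), 0 and 2 (endoderm) and 4 and 6 (mesoderm). Among reference forms, the one with the most reads (7 exons, 1585 nt) had 5 and 7 (ectoderm), 1 and 4 (hPSC), 4 and 4 (endoderm) and 1 and 0 (mesoderm). Counts per form were too low for the test of transcript choice. STK33 and ACOXL had patterns nearest to MEG3, at r of 0.967 and 0.966.

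IGF2, H19 and CDKN1C lie on the minus strand of chromosome 11. IGF2 encodes a fetal growth factor that signals through the IGF1 receptor and is made from the paternal copy. H19 is a maternally expressed noncoding RNA that shares enhancers with IGF2. CDKN1C encodes p57KIP2, an inhibitor of cyclin-dependent kinases that restrains growth and is made from the maternal copy.

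H19 (chr11:1995176-1997842) had 38 and 24 counts in the mesoderm libraries and 0 counts in the other 6. The mesoderm level was 59.6 ± 16.9 CPM (SD, n = 2), and no other group overlapped it. H19 was at least 10.7-fold higher in mesoderm than in hPSC (edgeR adjusted p = 0.000108), at least 11.6-fold higher than in endoderm and at least 21.1-fold higher than in ectoderm. With DESeq2 the 3 adjusted p-values were 0.29, 0.256 and 0.21, and those calls were lost. H19 entered these tests only because its mesoderm counts passed the filter, so the p-values are conditional on that. TP63 and CYP19A1 had the patterns nearest to H19, at r of 1.00 each, with 20 and 13 counts and 76 and 41 counts in mesoderm and 0 elsewhere. TP63 is a transcription factor of epithelia and of placental progenitor cells, and CYP19A1 is the aromatase that makes estrogen in the placenta. Both H19 forms had 5 exons. The form of 2315 nt had 28 and 15 counts and the form of 2309 nt had 10 and 9.

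IGF2 (chr11:2129112-2139389) had 17 and 20 counts in mesoderm. It had 0 and 1 in hPSC, 2 and 1 in ectoderm and 2 and 2 in endoderm. Mesoderm, at 35.9 ± 5.44 CPM, lay above every other library, and the other groups were at or under 3.42 CPM. The fitted log2 fold change against hPSC was 4.81 ± 0.81 (edgeR adjusted p = 0.000335). It rests on 1 read in hPSC: the ratio of pooled CPM was 38.7, with an exact 95% interval from 6.52 to 1568, and the fitted value was 3.81 without hPSC repeat 1 and 7.58 without repeat 2. IGF2 was also higher in mesoderm than in ectoderm (log2 difference of ectoderm minus mesoderm -4.67 ± 0.60, adjusted p = 2.85e-05) and than in endoderm (-2.77 ± 0.62, adjusted p = 0.00213). Of the mesoderm counts, 13 and 18 belonged to a transcript that starts at position 2139389. The other 4 and 2 belonged to a transcript that starts 2.07 kb downstream at 2137316. CALCOCO1 and ARID5B had the nearest patterns, at r of 0.990 and 0.989.

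CDKN1C (chr11:2883218-2885775) was nearly absent from hPSC, with 0 and 2 counts. The layers had 8 and 16 (ectoderm), 8 and 7 (endoderm) and 26 and 11 (mesoderm). The mesoderm mean was 35.4 ± 19.2 CPM, ectoderm had 11.7 ± 6.91 and endoderm 12.8 ± 1.22, so that ectoderm and endoderm overlapped. Against hPSC, CDKN1C was higher in mesoderm (log2 fold change 3.92 ± 0.88, edgeR adjusted p = 0.00306) and in endoderm (3.02 ± 1.04, adjusted p = 0.0413). Ectoderm was not called (2.09 ± 1.03, adjusted p = 0.104), but was without hPSC repeat 2 (5.80, 0.0266), with no filter on low counts (2.29, 0.0477) and with the trend on transcript length removed (3.24, 0.0146). With 2 reads in hPSC, the ratio of pooled CPM was 19.3 (exact 95% interval 4.99 to 166) for mesoderm, 6.92 (1.61 to 62.4) for endoderm and 6.04 (1.5 to 52.7) for ectoderm. The mesoderm call was lost without mesoderm repeat 1 (0.0582). The endoderm call was lost without hPSC repeat 1 (0.148), without either endoderm library (0.146 and 0.127), without mesoderm repeat 1 (0.0506), with DESeq2 (0.0848) and with library totals (0.0783). CDKN1C was lower in ectoderm than in mesoderm (-1.83 ± 0.53, adjusted p = 0.0143), a call lost without ectoderm repeat 1 (0.2), without mesoderm repeat 1 (0.36), with DESeq2 (0.133) and with the length trend removed (0.0779). All 5 of its transcripts matched the reference, and the one with most reads, of 4 exons and 1219 nt, had 11 and 7 of the mesoderm counts. TLN1 and IGSF3 were nearest in pattern, at r of 0.962 and 0.956.

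**Figure D2:**
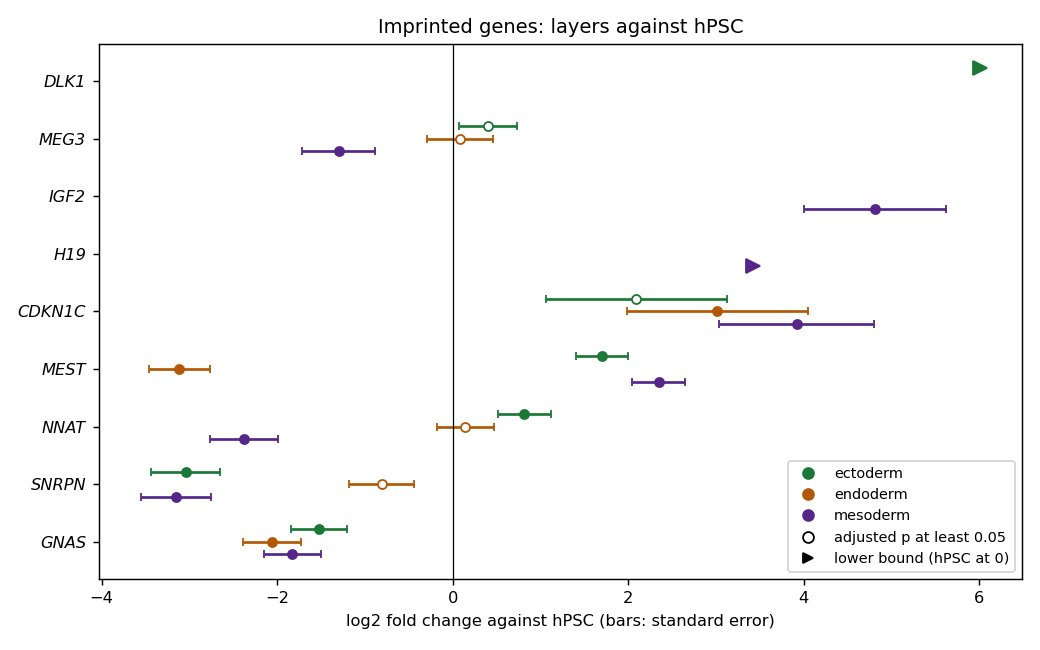
Log2 fold change of the 9 imprinted genes in ectoderm, endoderm and mesoderm against hPSC, from edgeR, with bars of 1 standard error. Open points have an adjusted p of 0.05 or more, arrowheads are lower bounds where hPSC had no reads, and genes at or under the floor of 3 counts in both groups are left out. GNAS was lower in all 3 layers, and MEST was higher in ectoderm and mesoderm and lower in endoderm.

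MEST and NNAT are paternally expressed genes of the mesenchyme and the nervous system. MEST encodes a membrane enzyme of the alpha/beta hydrolase family that promotes fetal growth. MEST (chr7:130486166-130506465, plus strand) had 212 and 193 counts (hPSC), 1954 and 1557 (ectoderm), 21 and 19 (endoderm) and 1088 and 1229 (mesoderm). In CPM these were 376 ± 45.9, 1632 ± 31.7, 34.1 ± 2.44 and 2244 ± 276 (SD, n = 2 each), with no overlap between groups. MEST was higher in ectoderm (log2 fold change 1.70 ± 0.30, edgeR adjusted p = 0.000333) and in mesoderm (2.35 ± 0.30, adjusted p = 3.2e-05) and lower in endoderm (-3.12 ± 0.35, adjusted p = 1.31e-05). These calls held in all 17 alternatives run. Ectoderm and mesoderm did not differ at the threshold (ectoderm minus mesoderm -0.65 ± 0.28, adjusted p = 0.0867), but did in 3 of 17 alternatives (down to 0.00842).

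MEST has a pair of start regions 5.92 kb apart. The downstream start, at 130492085, lies in the CpG island whose methylation is the imprint of the gene, and isoforms from upstream starts are known to escape imprinting in some tissues. RefSeq promoter windows (GRCh38.p14, 300 bases around a start, plus strand) are shown for both because the layers differed in which they used. Capitals mark TGCCGC or its reverse complement GCGGCA, the core that the imprint-keeping factor ZFP57 binds when methylated, and matches can overlap. Of 34943 RefSeq promoter windows of this length, 16.7% hold at least 1 match. The upstream window holds 1 match and 13 CG dinucleotides, and the downstream window holds 3 matches, 2 of them overlapping, and 25 CG. The median over all windows was 14 CG. A match is a description and not a binding site.
MEST upstream start, chr7:130485925-130486224: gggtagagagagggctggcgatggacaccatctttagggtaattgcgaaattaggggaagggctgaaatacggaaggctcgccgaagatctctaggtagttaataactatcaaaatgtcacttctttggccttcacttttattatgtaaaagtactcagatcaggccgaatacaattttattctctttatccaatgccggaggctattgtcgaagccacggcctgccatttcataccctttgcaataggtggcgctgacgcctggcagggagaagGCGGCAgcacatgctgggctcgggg
MEST downstream start, chr7:130491835-130492134: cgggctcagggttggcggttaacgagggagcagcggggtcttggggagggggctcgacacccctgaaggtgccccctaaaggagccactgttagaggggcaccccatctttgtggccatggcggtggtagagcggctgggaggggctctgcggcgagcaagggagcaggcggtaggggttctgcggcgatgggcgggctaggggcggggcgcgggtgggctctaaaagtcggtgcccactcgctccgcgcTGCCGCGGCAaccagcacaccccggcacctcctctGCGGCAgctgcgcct

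The downstream start had 57 and 7 counts (hPSC), 1328 and 1087 (ectoderm), 0 and 0 (endoderm) and 993 and 1123 (mesoderm). The upstream region, with starts from 130486166 to 130486336, had 155 and 186 counts (hPSC), 626 and 470 (ectoderm), 21 and 19 (endoderm) and 95 and 106 (mesoderm). In CPM the downstream start was at 61.1 ± 68.8 in hPSC, 1124 ± 0.51 in ectoderm and 2049 ± 254 in mesoderm. The upstream region was at 315 ± 23.0 (hPSC), 508 ± 31.2 (ectoderm), 34.1 ± 2.44 (endoderm) and 195 ± 22.3 (mesoderm). Endoderm thus had counts for upstream starts alone, and mesoderm mainly for the downstream start.

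The downstream share was 15.3% ± 16.4 (hPSC), 68.9% ± 1.31 (ectoderm), 0% (endoderm) and 91.3% ± 0.075 (mesoderm) (SD, n = 2 each). The hPSC repeats differed widely, at 26.9% and 3.63%. Endoderm had 40 MEST counts in all, and 0 counts from this start allow up to 3 per library. When the 8 libraries were split into pairs in every possible way (exact permutation test, F statistic), the shares differed between groups (p = 0.00952, the smallest this design gives, adjusted p = 0.0143 over the 3 genes tested). Start-site choice, tested with edgeR's diffSpliceDGE, differed from hPSC in ectoderm (adjusted p = 0.000828) and mesoderm (1.11e-06) but was not called in endoderm (0.207). It differed between all pairs of layers.

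MIR335 lies in an intron of all 4 MEST transcripts (hairpin chr7:130496111-130496204, plus strand). Its mature sequences are shown from RefSeq (GRCh38.p14), with the seed, bases 2 to 8, in capitals. The seeds differ, and libraries of polyadenylated RNA do not measure these miRNAs.
hsa-miR-335-5p: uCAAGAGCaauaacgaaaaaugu
hsa-miR-335-3p: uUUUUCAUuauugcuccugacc

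Of the other genes, H19 holds MIR675 within an exon of both its forms (hairpin chr11:1996759-1996831, minus strand), and MEG3 holds MIR770 in an intron of 16 of its 18 transcripts (hairpin chr14:100852390-100852487, plus strand). They are shown because H19 and MEG3 are their host transcripts, and no seed is shared among these miRNAs.
hsa-miR-675-5p: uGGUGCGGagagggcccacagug
hsa-miR-675-3p: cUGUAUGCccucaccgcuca
hsa-miR-770-5p: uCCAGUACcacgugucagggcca

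MYLK and PLXDC2 had the patterns nearest to MEST over the 8 libraries, at r of 0.990 and 0.989. MYLK, the kinase of smooth muscle and nonmuscle myosin, had 9 and 8 counts (hPSC), 56 and 54 (ectoderm), 1 and 2 (endoderm) and 34 and 30 (mesoderm).

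NNAT (chr20:37521206-37523690, plus strand) encodes neuronatin, a small membrane protein of the endoplasmic reticulum in developing brain. It had 40 and 48 counts (hPSC), 247 and 172 (ectoderm), 39 and 45 (endoderm) and 10 and 9 (mesoderm). The levels were 81.2 ± 5.92, 193 ± 22.2, 71.7 ± 7.19 and 18.3 ± 0.68 CPM (SD, n = 2 each). NNAT was lower in mesoderm than in hPSC (log2 fold change -2.38 ± 0.39, edgeR adjusted p = 0.000259), and endoderm was not called (0.15 ± 0.32). It was higher in ectoderm (0.82 ± 0.30, adjusted p = 0.0343). The ectoderm call was lost without hPSC repeat 1 (0.112), without ectoderm repeat 1 (0.102), with DESeq2 (0.104) and in a fit of the 4 libraries alone (0.0514). With the trend on transcript length removed, it was 2.04 (7.76e-05), where NNAT had a count-weighted length of 1260 nt.

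NNAT is known in a longer and a shorter form, which differ by a middle exon. The form without it had 11 and 12 counts (hPSC), 59 and 45 (ectoderm), 12 and 10 (endoderm) and 1 and 4 (mesoderm). The form with an 81-nt exon (chr20:37522358-37522438) had 29 and 36, 173 and 112, 26 and 32, and 8 and 4 counts in the same order. Another form, named here after its values were seen, has 76 nt of this exon (chr20:37522358-37522433), with 0 and 0, 15 and 15, 1 and 3, and 1 and 1 counts. The 81-nt form thus made up 73.8% ± 1.77 of counts (hPSC), 67.6% ± 3.48 (ectoderm), 68.9% ± 3.14 (endoderm) and 62.2% ± 25.1 (mesoderm, from 10 and 9 counts). With both exon forms pooled, the exon was kept in 72.8% to 75% of counts by group mean. Transcript choice, tested on 2 of these forms, was not called for NNAT in any comparison. SALL1, a zinc finger transcription factor, and LRIG1 had the nearest patterns, at r of 0.983 and 0.982.

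SNRPN encodes the SmN protein of small nuclear ribonucleoproteins. It lies in the Prader-Willi region of chromosome 15, is made from the paternal copy and shares its main transcript with the overlapping gene SNURF, which the table does not list apart. SNRPN (chr15:24856537-24978723, plus strand) had 1085 and 2000 counts (hPSC), 660 and 379 (ectoderm), 699 and 843 (endoderm) and 203 and 196 (mesoderm). The levels were 2824 ± 1039, 475 ± 118, 1316 ± 173 and 386 ± 4.80 CPM (SD, n = 2 each). Every hPSC library lay above every layer library. SNRPN was lower in ectoderm (log2 fold change -3.04 ± 0.39, edgeR adjusted p = 3.55e-05) and in mesoderm (-3.16 ± 0.40, adjusted p = 2.87e-05). Endoderm was not called (-0.81 ± 0.37, adjusted p = 0.114) but was without hPSC repeat 1 (-1.26, 0.000118) and with library totals (-1.10, 0.0161). Endoderm was higher than ectoderm and mesoderm, which did not differ at the threshold (0.11 ± 0.37). With the length trend removed, the ectoderm value was -1.86 (0.00051), and SNRPN's count-weighted length was 1550 nt.

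SNRPN reads were assigned to transcripts with 3 start regions. The main start, between 24954923 and 24954987, is the promoter within the imprinting centre of the region. A far upstream start lay 98.4 kb before it at 24856537, and an internal start of a transcript of 2 exons that is no reference form lay at 24963390. RefSeq windows of the first 2 are shown (GRCh38.p14, plus strand, capitals as above) because the layers differed in their shares. The main window holds 2 matches and 18 CG, and the far upstream one holds none and 7 CG.
SNRPN far upstream start, chr15:24856321-24856620: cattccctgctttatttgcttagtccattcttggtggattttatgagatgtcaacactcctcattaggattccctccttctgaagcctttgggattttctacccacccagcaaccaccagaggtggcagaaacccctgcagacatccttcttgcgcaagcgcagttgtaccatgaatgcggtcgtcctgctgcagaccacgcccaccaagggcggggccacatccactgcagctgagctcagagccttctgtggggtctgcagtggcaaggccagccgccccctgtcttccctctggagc
SNRPN main start, chr15:24954737-24955036: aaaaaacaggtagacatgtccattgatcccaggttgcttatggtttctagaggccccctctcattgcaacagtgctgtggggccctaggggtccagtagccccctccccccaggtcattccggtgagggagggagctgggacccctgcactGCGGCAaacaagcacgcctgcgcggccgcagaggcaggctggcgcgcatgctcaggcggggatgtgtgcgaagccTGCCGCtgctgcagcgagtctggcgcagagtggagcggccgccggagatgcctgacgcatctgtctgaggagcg

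The far upstream start had 16 and 66 counts (hPSC), 45 and 19 (ectoderm), 135 and 121 (endoderm) and 14 and 17 (mesoderm). It was highest in endoderm, at 218 ± 17.1 CPM against 74.1 ± 61.2 in hPSC, and made up 16.8% ± 3.51 of SNRPN counts there, against 2.39% ± 1.29 in hPSC. The internal start had 28 and 16 counts (hPSC), 58 and 46 (ectoderm), 1 and 4 (endoderm) and 15 and 23 (mesoderm). It made up 10.5% ± 2.37 in ectoderm and 9.56% ± 3.07 in mesoderm, against 1.69% ± 1.26 in hPSC and 0.31% ± 0.23 in endoderm. Its transcript has 3717 nt, against 1477 nt for the main reference form, and ectoderm and mesoderm also had the longest mean transcripts. The length trend was removed for gene totals only, and its part in the shares and tests of choice was not tested. The main start held 95.9% in both hPSC libraries and between 79.6% and 85.7% in the layer libraries, in which its counts were 557 and 314, 563 and 718, and 174 and 156.

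Start-site choice of SNRPN differed from hPSC in ectoderm (diffSpliceDGE adjusted p = 0.000579), endoderm (0.000559) and mesoderm (0.000558). Relative to the rest of the gene and with starts joined within 1000 nt, the far upstream start was 1.83 log2 units higher in endoderm (adjusted p = 0.00399) and the internal start was 1.97 and 1.91 higher in ectoderm and mesoderm (0.000121 and 0.000702). The choice differed between endoderm and both other layers but not at the threshold between ectoderm and mesoderm (0.927). The exact permutation test of the main start's share alone did not pass (p = 0.143, adjusted p = 0.143). SNHG16 and ENSG00000285043 had the nearest patterns, at r of 0.995 and 0.990.

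**Figure D3:**
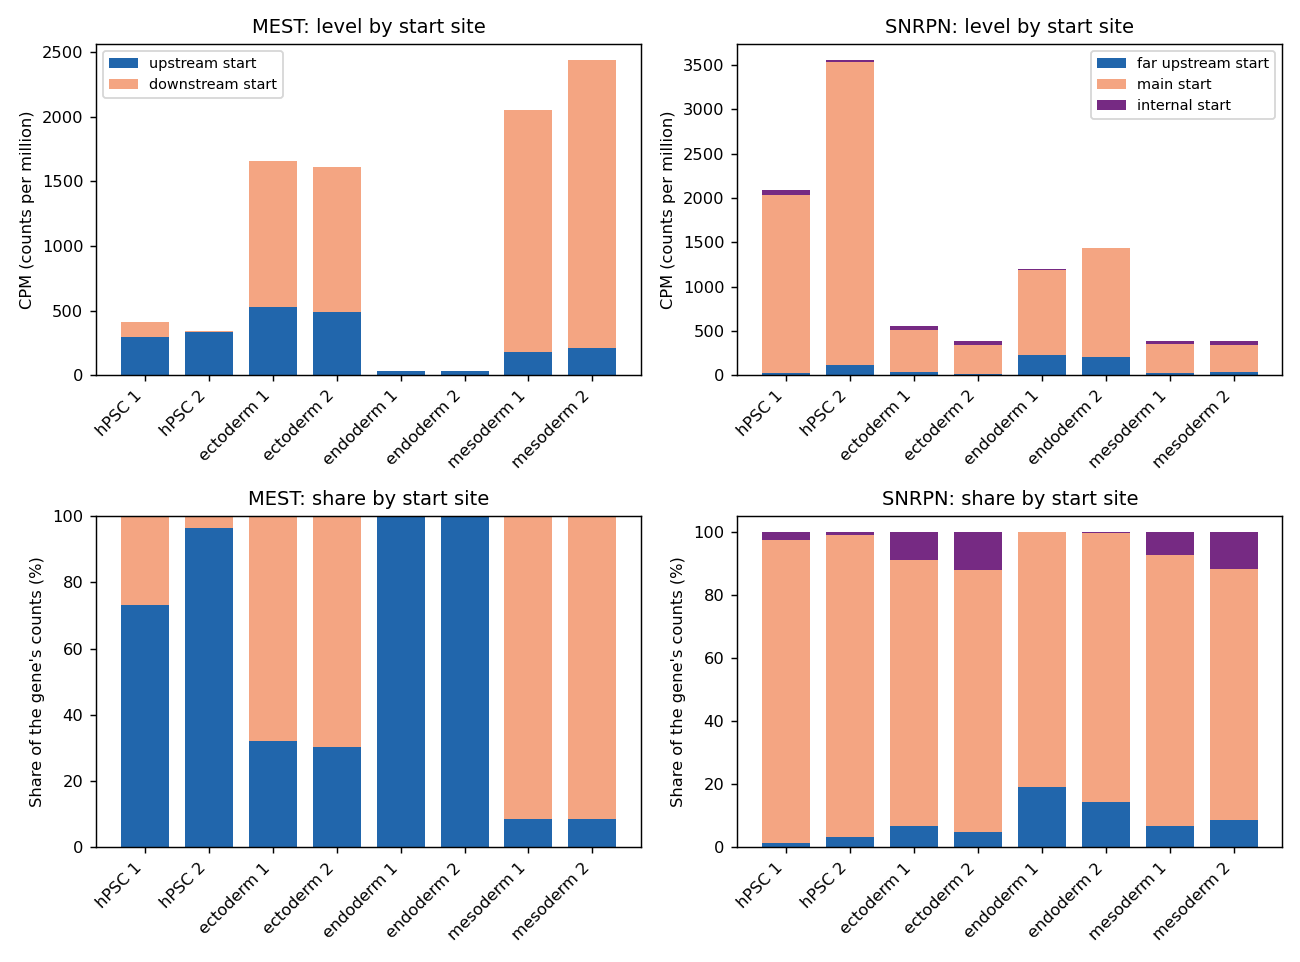
Level (upper panels, CPM) and share of the gene's counts (lower panels, %) by start region for MEST and SNRPN, with 1 stacked bar per library. The downstream MEST start made up 91.3% and 91.4% in mesoderm and no reads in endoderm, and the far upstream SNRPN start made up 19.3% and 14.4% in endoderm.

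GNAS holds several promoters on chromosome 20 whose transcripts share their downstream exons. The most upstream gives NESP55, a secretory granule protein made from the maternal copy. XLas and the noncoding A/B transcript come from paternally used promoters, and the promoter of Gs-alpha, the stimulatory G protein subunit, is used from both copies in most tissues. GNAS (chr20:58839718-58911192, plus strand) had 287 and 435 counts (hPSC), 407 and 279 (ectoderm), 73 and 78 (endoderm) and 129 and 104 (mesoderm). Its levels were 663 ± 156 CPM (hPSC), 317 ± 39.7 (ectoderm), 129 ± 5.94 (endoderm) and 225 ± 25.8 (mesoderm) (SD, n = 2 each). Groups did not overlap. GNAS was lower than in hPSC in ectoderm (log2 fold change -1.52 ± 0.32, edgeR adjusted p = 0.00125), endoderm (-2.06 ± 0.33, adjusted p = 0.000362) and mesoderm (-1.83 ± 0.33, adjusted p = 0.000579). These calls held in all 17 alternatives run, and with the length trend removed the ectoderm value was -0.89 (0.0265).

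The promoters differed in which groups used them. GENCODE 29 pairs reference transcripts of the NESP55, XLas and Gs-alpha start regions with the RefSeq entries of those products, and the A/B region is named for its place just upstream of Gs-alpha. Starts within 1000 nt were joined, a width chosen after the data were seen. The NESP55 region had 217 and 379 counts (hPSC), 244 and 157 (ectoderm), 9 and 11 (endoderm) and 8 and 6 (mesoderm). That was 546 ± 181 CPM (hPSC), 184 ± 31.3 (ectoderm), 17.1 ± 2.40 (endoderm) and 13.5 ± 2.23 (mesoderm). The Gs-alpha region had 31 and 42, 88 and 71, 41 and 42, and 61 and 45 counts in the same order. Its CPM was 67.2 ± 10.6, 74.0 ± 0.79, 70.8 ± 1.15 and 102 ± 18.1. Its range in hPSC held those of ectoderm and endoderm, and both mesoderm libraries lay above the other 6.

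The A/B region had 18 and 4 counts (hPSC), 41 and 20 (ectoderm), 11 and 16 (endoderm) and 27 and 30 (mesoderm). XLas had 17 and 5, 3 and 7, 5 and 0, and 22 and 13 counts in the same order. An inner start region, 63.0 kb downstream of the first, had 1 and 1 counts (hPSC), 21 and 19 (ectoderm), 1 and 5 (endoderm) and 9 and 8 (mesoderm). A transcript of 7329 nt held 18 and 17 of these ectoderm counts and 6 and 7 of the mesoderm ones. The part of transcript length in this start's share was not tested. As shares, NESP55 made up 81.4% ± 8.14 (hPSC), 58.1% ± 2.60 (ectoderm), 13.2% ± 1.25 (endoderm) and 5.99% ± 0.31 (mesoderm). Gs-alpha made up 10.2%, 23.5%, 55.0% and 45.3%, and A/B 3.60%, 8.62%, 17.8% and 24.9%.

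The promoter windows of NESP55 and A/B are shown because they are a maternally and a paternally used promoter of the gene (RefSeq, GRCh38.p14, plus strand, capitals as above). The NESP55 window holds 1 match and 21 CG. The A/B window holds no match and 43 CG, at percentile 95 of all windows.
GNAS NESP55 start, chr20:58839498-58839797: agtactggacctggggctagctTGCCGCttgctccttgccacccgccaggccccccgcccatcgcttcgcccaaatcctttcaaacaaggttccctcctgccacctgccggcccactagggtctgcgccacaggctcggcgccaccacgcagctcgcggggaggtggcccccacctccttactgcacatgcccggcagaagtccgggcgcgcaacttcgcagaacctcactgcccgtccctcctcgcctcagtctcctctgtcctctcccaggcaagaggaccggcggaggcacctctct
GNAS A/B start, chr20:58888930-58889229: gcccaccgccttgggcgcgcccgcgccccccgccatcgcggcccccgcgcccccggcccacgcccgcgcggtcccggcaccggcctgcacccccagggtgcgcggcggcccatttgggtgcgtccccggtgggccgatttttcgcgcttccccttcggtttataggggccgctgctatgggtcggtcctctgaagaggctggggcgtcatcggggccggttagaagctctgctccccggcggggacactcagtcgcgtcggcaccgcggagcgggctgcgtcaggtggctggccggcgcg

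With starts joined within 100 nt, start-site choice of GNAS differed from hPSC in ectoderm (diffSpliceDGE adjusted p = 0.00184), endoderm (1.98e-05) and mesoderm (2.27e-09). It differed between ectoderm and the other 2 layers but was not called between endoderm and mesoderm (0.16). With 1000 nt, the NESP55 region was lower relative to the rest of the gene in endoderm (-1.77 log2 units, adjusted p = 0.00417) and in mesoderm (-2.60), and not called in ectoderm (-0.34, adjusted p = 0.909). XLas was relatively higher in mesoderm (1.60, adjusted p = 0.00441), with no call in ectoderm or endoderm. A/B was relatively higher in endoderm (1.83, adjusted p = 0.00512) and mesoderm (2.09, adjusted p = 7.08e-05), as was Gs-alpha (1.75 and 1.51, adjusted p = 0.00399 and 0.0017), and neither was called in ectoderm. The inner start was relatively higher in ectoderm (adjusted p = 0.000909) and mesoderm (3.21, adjusted p = 0.00102), from 1 read in each hPSC library. Start sites also had to pass the filter on low counts. The inner start reached its minimum in both libraries of ectoderm alone, and XLas in both libraries of mesoderm alone. Their p-values are therefore conditional on that. The share of the most used 100-nt cluster, within NESP55, differed between groups in the exact permutation test (p = 0.00952, adjusted p = 0.0143). RNF26 and KPNA2 had the nearest patterns, at r of 0.986 and 0.985.

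**Figure D4:**
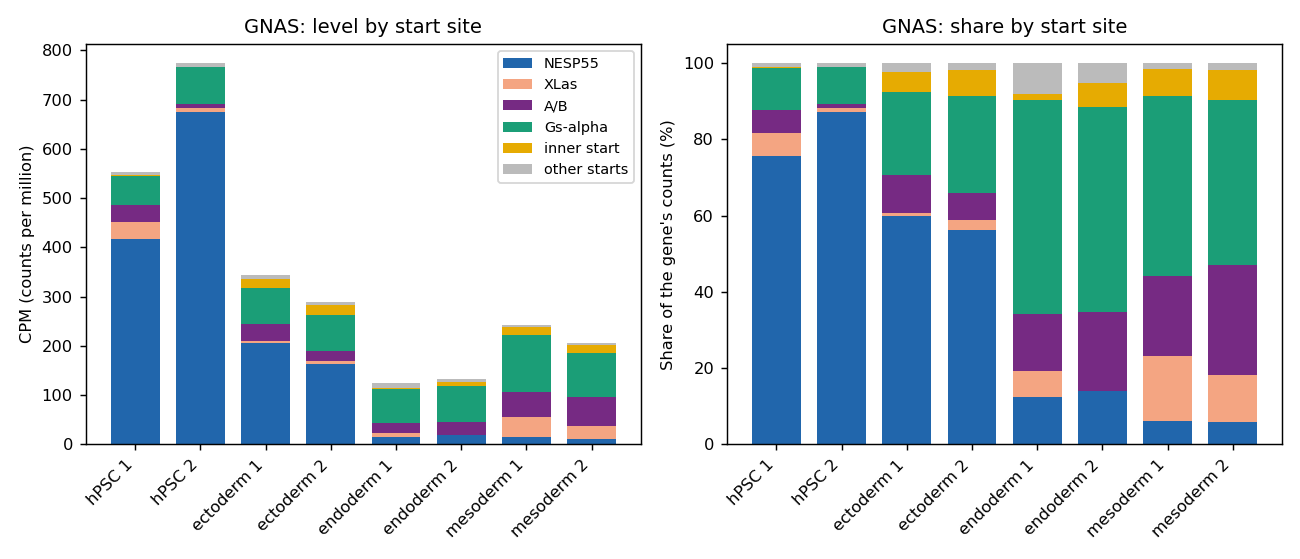
GNAS level (left, CPM) and share of GNAS counts (right, %) by start region, with 1 stacked bar per library. With starts joined within 1000 nt, NESP55 made up 75.6% and 87.1% in hPSC and 6.20% and 5.77% in mesoderm. The Gs-alpha region lay between 59.7 and 115 CPM in all 8 libraries at that width.

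Across the tests of choice, start sites could be tested for MEST, SNRPN and GNAS, and transcripts for these, NNAT and H19. For start sites, all 3 genes were called in ectoderm against hPSC, 2 in endoderm and 3 in mesoderm, beside 6.09%, 8.55% and 10.9% of 1216 genes. In layer pairs, 3 were called for ectoderm against endoderm, 2 for ectoderm against mesoderm and 2 for endoderm against mesoderm, beside 19%, 10.4% and 15.6%. The ectoderm count against hPSC rests on both ectoderm libraries: 1 gene was called without ectoderm repeat 1 and 0 without repeat 2 (3 with all libraries). For ectoderm against mesoderm, 1 was called without any 1 of the 4 libraries of those layers. For transcripts, MEST and SNRPN were called in ectoderm, SNRPN in endoderm and all 3 in mesoderm against hPSC, beside 5.99%, 5.04% and 7.05% of 2638 genes. In pairs, 2 genes each were called, beside 15.2% for ectoderm against endoderm, 6.37% for ectoderm against mesoderm and 9.93% for endoderm against mesoderm. Without ectoderm repeat 2, 0 were called for transcripts in ectoderm against hPSC. Start-site and transcript tests of a gene use the same reads.

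Other imprinted genes were described from fixed lists. Values of all listed genes here and below are given without removal of the trend on transcript length, whose part in them was not tested. For ectoderm against hPSC, removing it moved NNAT from 0.82 to 2.04 and MEG3 from 0.40 to -0.27. Nor are values of the listed genes given with a library left out. Their counts against hPSC stand beside the shares of all genes given above: 23.8% higher and 24.8% lower (ectoderm), 13.4% and 13.7% (endoderm) and 17% and 18.2% (mesoderm). Of 26 genes listed as paternally expressed, a label of the list that was not checked here, 17 were in the table and 11 were tested. Against hPSC, 5 were higher and 0 lower (ectoderm), 2 and 2 (endoderm) and 3 and 1 (mesoderm), beside those shares, with medians of 0.84, 0.00 and 0.00 after genes at 0 in hPSC were set to their bound (1.05, 0.00 and 0.72 as fitted). PEG10, derived from a retrotransposon and needed for the placenta, was higher in all 3 layers, with 18 and 13 counts (hPSC), 188 and 195 (ectoderm), 253 and 228 (endoderm) and 31 and 59 (mesoderm). Against hPSC this was 2.23 ± 0.39, 4.17 ± 0.39 and 1.38 ± 0.41 on the log2 scale (edgeR adjusted p = 0.00032, 2.81e-06 and 0.0159).

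DIO3, the deiodinase that inactivates thyroid hormone and lies in the same cluster as DLK1 and MEG3, had 33 and 22 counts in endoderm but none in the hPSC libraries, a bound of at least 8.45-fold (adjusted p = 0.000155, edgeR). DLK1 had no reads in those endoderm libraries. ZDBF2 had 41 and 27 counts in ectoderm but none in the hPSC libraries, a bound of at least 5.64-fold (edgeR adjusted p = 0.000303). DIO3 passed the filter on low counts only through endoderm, and ZDBF2 only through ectoderm. Their p-values and calls are therefore conditional on high levels there. SNHG14, the long host transcript of small nucleolar RNAs downstream of SNRPN, was lower in endoderm (-1.14 ± 0.31) and mesoderm (-1.31 ± 0.31) and not called in ectoderm (0.65 ± 0.29, adjusted p = 0.0728), where SNRPN was lower. KCNQ1OT1, the antisense RNA of the domain that holds CDKN1C, was higher in ectoderm (1.62 ± 0.47) and mesoderm (1.88 ± 0.49). INPP5F, an inositol phosphatase, was higher in ectoderm (1.15 ± 0.43) and mesoderm (1.87 ± 0.44). ZNF331 was higher in ectoderm (1.05 ± 0.31) and lower in endoderm (-1.90 ± 0.42).

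Of 15 maternally expressed or isoform-dependent genes listed, 6 were tested. In ectoderm 2 were higher and 3 lower, in endoderm 2 higher and 0 lower, and in mesoderm 1 higher and 0 lower, beside the same shares of all genes, with medians of -0.21, 0.55 and 0.51. UBE3A, the ubiquitin ligase of Angelman syndrome, overlaps the antisense SNHG14, and KCNQ1OT1 overlaps KCNQ1, so that reads of each pair cannot be told apart where strand was not used in counting. UBE3A was higher in ectoderm (1.97 ± 0.38) and mesoderm (1.37 ± 0.41). PPP1R9A, a neuronal actin-binding protein, was higher in ectoderm (2.17 ± 0.40). NAA60, an acetyltransferase of the Golgi, was higher in endoderm (1.81 ± 0.31) and lower in ectoderm (-0.80 ± 0.31). SLC22A18 went the same ways (1.34 ± 0.45 and -1.40 ± 0.52). GRB10, an adaptor that restrains insulin and IGF signalling, was lower in ectoderm (-0.95 ± 0.34), with 63 and 28 counts in the hPSC repeats.

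**Figure D5:**
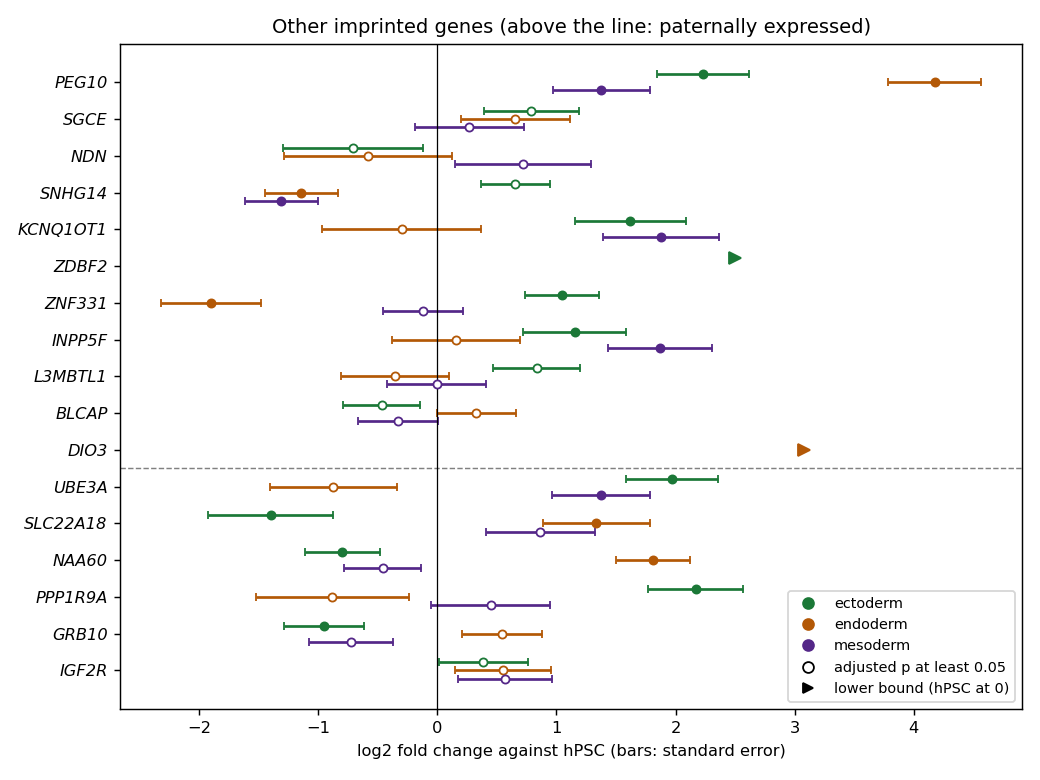
Log2 fold change against hPSC of the 17 other imprinted genes tested, from edgeR, with bars of 1 standard error, open points for an adjusted p of 0.05 or more and arrowheads for lower bounds of called genes without reads in hPSC. Genes listed as paternally expressed stand above the dashed line. PEG10 was higher in all 3 layers, most in endoderm at 4.17.

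Among 8 tested factors that write or keep imprints, 2 were higher and 2 lower (ectoderm), 0 and 3 (endoderm) and 1 and 3 (mesoderm), with medians of -0.20, -0.67 and -0.36. Over all genes the shares were 23.8% and 24.8%, 13.4% and 13.7%, and 17% and 18.2%, so the ectoderm counts were near the background. DNMT3B, a de novo DNA methyltransferase that is also in the pluripotency list, had 381 and 364 counts in hPSC and fell to 241 and 189 (ectoderm), 52 and 43 (endoderm) and 32 and 26 (mesoderm) (-2.21 ± 0.28, -2.75 ± 0.30 and -3.85 ± 0.32). TRIM28, the corepressor that ZFP57 and ZNF445 recruit, was lower in all 3 layers (-1.43 ± 0.36, -1.17 ± 0.37 and -1.29 ± 0.37). ZNF445 was lower in endoderm (-2.31 ± 0.47) and higher in ectoderm (0.84 ± 0.31). UHRF1, which guides DNMT1 to copied DNA, was higher in ectoderm (1.34 ± 0.38) and mesoderm (1.05 ± 0.38), but its hPSC repeats differed, at 69 and 24 counts. DNMT3A, another de novo DNA methyltransferase, was lower in mesoderm (-0.92 ± 0.31). ZFP57 itself had at most 3 counts in a library and was not tested.

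Of 10 tested genes of the IGF axis, 2 were higher and 2 lower (ectoderm), 1 and 3 (endoderm) and 3 and 3 (mesoderm), with medians of -0.10, -0.20 (-0.61 as fitted) and 0.14. The ectoderm counts were again near the 23.8% and 24.8% of all genes, beside 13.4% and 13.7% for endoderm and 17% and 18.2% for mesoderm. IGFBP3, an IGF carrier that is also on the amnion and trophoblast list, had 587 and 655 counts in mesoderm against 6 and 0 in hPSC (7.50 ± 0.58), in the same libraries as IGF2. IGFBP5 had 136 and 96 counts in ectoderm and 36 and 39 in mesoderm and 0 in hPSC and endoderm. Another IGF carrier, IGFBP2, was lower in endoderm (-3.38 ± 0.90) and higher in mesoderm (2.10 ± 0.56), and IGFBP4 was lower in ectoderm (-1.55 ± 0.49). Repeats differed widely, with IGFBP2 counts of 50 and 14 (hPSC) and 215 and 89 (mesoderm) and IGFBP4 counts of 24 and 6 (ectoderm). IGFBP6 was higher in endoderm (2.34 ± 0.46) and lower in ectoderm and mesoderm (-3.71 ± 0.78 and -2.59 ± 0.83). The receptor gene IGF1R was not called in any layer (-0.09 ± 0.33, 0.20 ± 0.35 and 0.29 ± 0.34). Nor was IGF2R, which clears IGF2 and stands on the list of imprinted genes (0.39 ± 0.37, 0.55 ± 0.40 and 0.57 ± 0.39). IGF2BP3, an RNA-binding protein of IGF2 transcripts, was lower in endoderm (-2.50 ± 0.41) and mesoderm (-1.83 ± 0.38).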

How the data were processed

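Long-read RNA libraries of hPSC, ectoderm, endoderm and mesoderm, with 2 repeats each, were placed in the 4 groups their titles name. The authors deposited counts of reads per assembled transcript, whole and not normalized, on a combined assembly, used here, and on an assembly of each group. The endoderm columns carry the unit name expected counts in the record of columns, but the deposited values are whole raw counts like the others, and nothing was rounded. The tools minimap2 and StringTie and the builds GRCh38 and hg38 are named in the submitters' processing notes. Their versions, the counter, the annotation release, the use of strand and the treatment of reads that fit several transcripts or end before the 5′ end are not given in the sources used here. Transcripts of SNRPN and SNURF, and of GNAS and its neighbours, overlap, so reads could be split or shared between them. Of 50 multi-exon transcripts of these genes with a reference identifier in GENCODE 29, 41 have the same introns there on GRCh38.

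Gene counts are sums over transcripts that the assembly gives the gene's name. 2 intronic transcripts listed under SNRPN and 1 under GNAS were left out in the main analysis. edgeR 4.0.16 in R 4.3.3 was run with TMM, filterByExpr at a minimum count of 10, 1 quasi-likelihood fit over all 8 libraries, 6 contrasts and Benjamini-Hochberg adjustment over all genes at 0.05, two-sided. The SE is the size of the log2 fold change divided by the root of F. A gene with enough reads in 1 group alone passed the filter only through that group, and its p-values are conditional on that. Transcripts and start sites in the tests of choice passed the same filter, with the same limit. Transcript and start-site choice used diffSpliceDGE, with 5′ ends of assembled transcripts joined within 100 nt. Counts of a start are reads assigned to transcripts that start there. Where the reads themselves began was not measured. Where a group had no reads, a fold is a lower bound against 3 counts per library, and with 1 to 3 reads it is a ratio with a 95% exact interval, both for counting error only. On simulated data of 10847 genes with 200 changed 4-fold, the gene test recovered 80.5%, 73% and 72.5% for ectoderm, endoderm and mesoderm against hPSC, and 4.73%, 4.58% and 7.05% of its calls were false. Sequences are from RefSeq. Of the 9 genes, 4 had promoter windows there (MEST, SNRPN, GNAS and MEG3) at an assembled start. Tables and figures were made in Python 3.11.15.

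The genes and lists were chosen with earlier results of these data known. Named were the 10 genes, their transcripts and start regions with at least 10% of the gene's counts in a group with at least 20 counts, the 2 genes nearest in pattern to each, and, in each other list, the genes called against hPSC with the 4 highest and 4 lowest fold changes (plus IGF1R, IGF2R, INPP5F and ZFP57, added outside that rule). Alternatives were DESeq2 1.42.0, other scaling, filters, start windows and transcript sets, a replicate block, a length trend and each library left out.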

Additional observations from a re-analysis of the deposited data

Results flagged for a closer look

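MEST and NNAT moved in opposite directions against hPSC in different layers, and the direct test between those layers also passed. MEST was higher in ectoderm and lower in endoderm, and ectoderm exceeded endoderm by 4.81 log2 units (edgeR adjusted p = 1.05e-07). MEST was also higher in mesoderm, and endoderm minus mesoderm was -5.46 log2 units (adjusted p = 8.58e-08). NNAT was higher in ectoderm and lower in mesoderm, and ectoderm exceeded mesoderm by 3.19 log2 units (adjusted p = 9.83e-06). The comparisons against hPSC share the hPSC libraries.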

How the results depend on the processing

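No result changed sign among called values. Of 54 values of the 9 genes (6 comparisons each), 31 were called, and 22 of these in every alternative run with a test. The other 9 were lost in at least 1, and 9 of the 23 others were gained in at least 1. Over all genes, from 13.4% (endoderm against hPSC, higher) to 33.1% (ectoderm against endoderm, higher) were called per comparison and direction. The comparisons share libraries, and some values, such as H19 in ectoderm against hPSC, compare groups without reads. These counts are a record of stability and no result about imprinted genes as a set. With DESeq2 the count of all genes called was 3356 for ectoderm, 1836 for endoderm and 2315 for mesoderm against hPSC and 2015 for ectoderm against mesoderm. A fit of the 4 libraries alone gave 2470 for mesoderm against hPSC. Imprinted genes called in ectoderm against endoderm were 6 with library totals (added after the data were seen) and with the length trend removed, and 5 with the 4 libraries alone and with reference transcripts alone. With no filter on low counts, 2 were called for transcript choice in endoderm against hPSC.

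Leaving out 1 library at a time, all genes called ranged from 3290 to 5938 for ectoderm, 1450 to 4072 for endoderm and 2006 to 5087 for mesoderm against hPSC, from 1775 to 5640 for ectoderm against mesoderm and from 3382 to 6484 for endoderm against mesoderm. Against hPSC, the lowest came without ectoderm repeat 2, without endoderm repeat 2 (1631 without repeat 1) and without mesoderm repeat 2 (2259 without repeat 1). For ectoderm against mesoderm, leaving out any of those 4 libraries gave from 1775 to 2336, and for endoderm against mesoderm the lowest came without endoderm repeat 2. Where 1 library was left in a group, it is assumed to vary like the others. Imprinted genes called in ectoderm against endoderm ranged from 3 to 5, the latter without either hPSC library. For start-site choice, genes called ranged from 0 to 3 in ectoderm against hPSC and from 1 to 2 in ectoderm against mesoderm. For transcript choice they ranged from 0 to 3 in ectoderm and 1 to 3 in endoderm against hPSC and from 1 to 2 in ectoderm against mesoderm. The range of group means for the main SNRPN start's share was 13.1 to 16.3 percentage points (13.3 with all, 16.3 without mesoderm repeat 1). The cause of these changes was not tested, beyond the fewer libraries or genes in each fit.

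Repeat numbers did not pair the libraries: correlations of deviations between groups lay between -0.03 and 0.13. With the repeat number as a replicate block, 5108, 2799 and 3613 genes were called in ectoderm, endoderm and mesoderm against hPSC (5275, 2943 and 3815 without), and 5, 3 and 8 of the imprinted genes, as without the block. Depth limits what could be called for genes with few reads, such as IGF2 (45 in all), H19 (62) and CDKN1C (78).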
